A study of Drosophila melanogaster with 13 samples.

Results

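The Bithorax complex is the cluster of homeotic genes on chromosome arm 3R of Drosophila melanogaster that holds Ubx, abd-A and Abd-B. Its peaks were taken from 9 ChIP-seq peak lists by position alone: every peak that overlapped 3R, 12400001 to 12900000, in Release 5 (dm3) coordinates. That window of 500 kb held none of the 6712 peaks of gamma-H2Av in SuUR salivary glands, 25 of the 5175 peaks of gamma-H2Av in OrR glands and 6 of the 5684 peaks of IgG in OrR glands. In egg chambers the 3 lists of stages 12-13 held no peak there, and at stage 10 the library labelled SUUR held 16 of its 5147 peaks and the other 2 lists none. The window was read in bins of 10 kb and in 3 stretches named after the gene on that side. These are the Ubx side, 12400001 to 12600000, the abd-A side, 12600001 to 12700000, and the Abd-B side, 12700001 to 12900000. The borders are round numbers from the rule, not gene ends.

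The salivary gland groups were gamma-H2Av ChIP from the SuUR mutant strain, gamma-H2Av ChIP from OrR (Oregon-R, a wild-type strain) and rabbit IgG from OrR. All came from glands dissected by hand from wandering larvae of the third instar, with an input for each strain. The labels give no allele for SuUR beyond the strain name. The egg chamber groups were all OrR, from females fed wet yeast for 2 days: ChIP with antibodies to SUUR or to Cdc45, and with guinea pig IgG, each at pooled stages 12 and 13 and at stage 10. Each egg chamber ChIP used 600 egg chambers fixed in 2% formaldehyde, and these hold germline cells as well as follicle cells. Every group is 1 library, so no difference between groups could be tested against replicate spread, and all values below describe these libraries. Depth after duplicate removal was 15996251 to 19208769 tags in the gland libraries, 2592149 to 8265341 in 5 egg chamber libraries and 353742 in the stage 10 library labelled SUUR. The header of each of the 4 egg chamber ChIP lists names a run of the other antibody (Cdc45 where the label says SUUR, and the reverse), so these lists are called by their labels only.

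Ubx, abd-A and Abd-B encode homeodomain transcription factors that give the segments of the posterior body their identity. Ubx acts from the last thoracic segment, where it makes a haltere in place of a wing, abd-A acts in the middle abdomen, and Abd-B acts in the last abdominal segments and the genitalia. Where they are not used, as in the larval salivary gland, the complex is packed in Polycomb-repressed chromatin. Salivary gland cells copy their DNA over and over without dividing, and late-replicating regions, the Bithorax complex among them, end with fewer copies than the rest of the genome. The SUUR protein is needed for this underreplication and is known to slow replication forks. Gamma-H2Av, the fly's counterpart of mammalian gamma-H2AX, is H2Av phosphorylated in the chromatin around DNA breaks. Cdc45 is part of the helicase that opens DNA at moving forks.

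In the Release 6 gene table, used for names and order only, 16 genes run from Ubx to Abd-B, 6 of them protein-coding. The order is Ubx, the antisense RNA asRNA:PS4, lncRNA:bxd, CG31275, lncRNA:CR44945, Glut3, lncRNA:CR45750, lncRNA:TS16, abd-A, MSAmiP, lncRNA:iab8, lncRNA:iab4, mir-iab-4, mir-iab-8, lncRNA:CR43617 and Abd-B. Mir-iab-4 and mir-iab-8 are microRNAs made from opposite strands of one locus, and they repress homeotic genes of the complex. The gene before Ubx is modSP and the next protein-coding gene after Abd-B is VhaM9.7-d. Peaks were not placed in single genes, because the table and the peak lists are of different releases, and no sequence is shown for the same reason.

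**Figure D1:**
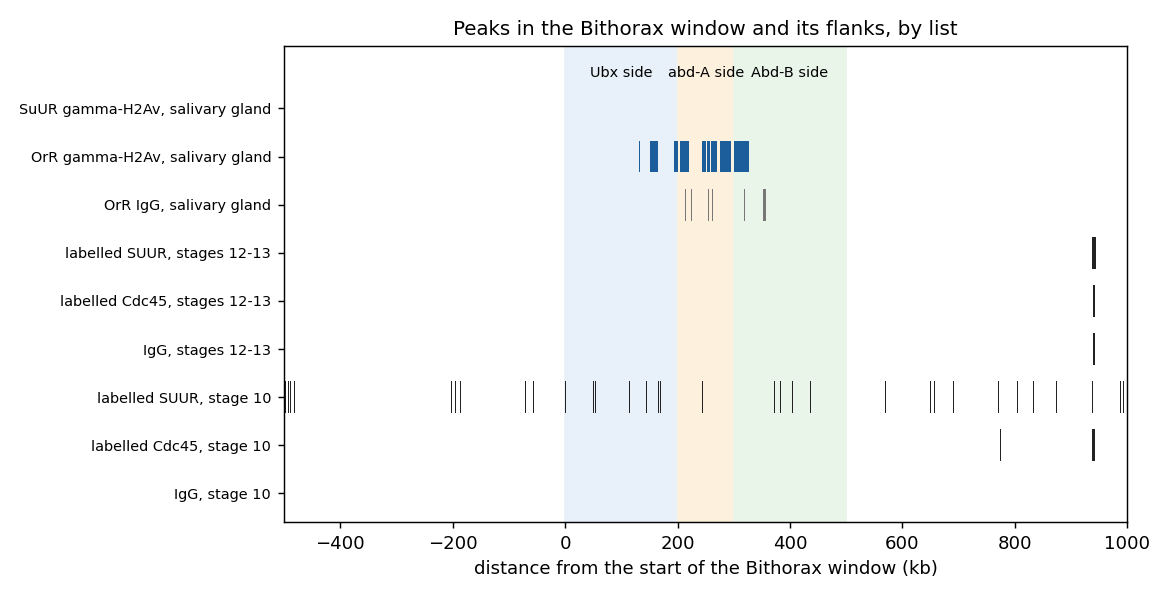
Peaks of the 9 lists along the Bithorax window and 500 kb on each side, as distance in kb from the window's start. Each bar is a peak (short ones are drawn at a minimum width) and the shaded bands are the Ubx, abd-A and Abd-B sides. The 25 OrR gamma-H2Av peaks lie together in the middle of the window, and no peak of SuUR gamma-H2Av is present.

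The first comparison set gamma-H2Av against IgG in OrR glands, to read peak coverage of the DNA damage mark beside the background of the procedure. Gamma-H2Av peaks covered 60.8% of the abd-A side (60.8 kb, 16 peaks), against 5.79% for IgG (5.79 kb, 4 peaks). On the Ubx side they covered 10.9% (21.7 kb, 3 peaks), with no IgG peak. On the Abd-B side they covered 13.1% (26.1 kb, 7 peaks), against 3.46% for IgG (6.91 kb, 2 peaks). One gamma-H2Av peak crossed from the Ubx to the abd-A side and is counted in both. Neither gamma-H2Av nor IgG had a peak in the 500 kb below the window or in the 500 kb above it. The nearest OrR gamma-H2Av peaks outside were 0.757 Mb below and 10.7 Mb above. With only the upper 50% of each list by p, the window kept 10 gamma-H2Av peaks with 62.1 kb and 1 IgG peak with 5.25 kb. Coverage was thus densest on the abd-A side and reached only part of each outer stretch.

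The first gamma-H2Av peak of the window lay on the Ubx side at 12531777 to 12532965, and the last ended on the Abd-B side at 12727001. Between them they spanned 195 kb, of which 55.7% was covered. The lower 132 kb of the window, on the Ubx side, and the upper 173 kb, on the Abd-B side, held no gamma-H2Av peak. Gaps between neighbouring peaks had a median of 160.5 bp, and 13 of the 24 were at most 200 bp, the smallest 4 bp. Joined across gaps of at most 1 kb, the 25 peaks made 8 blocks. The longest block, 12700201 to 12727001, held all 7 peaks of the Abd-B side in 26.8 kb and was 97.5% covered. It ranked 13 by length among the 384 such blocks of the arms 2L, 2R, 3L, 3R and X, called the 5 major arms here. The next was 12674913 to 12695976 on the abd-A side, with 6 peaks in 21.1 kb. The other abd-A blocks held 17.0, 13.1 and 10.4 kb, from 2, 3 and 4 peaks, and the 3 Ubx-side peaks stood alone with 1.19, 15.1 and 6.98 kb. The widest gap, 29.1 kb, lay on the Ubx side between 12565418 and 12594555, and a gap of 23.5 kb split the abd-A side after 12620814.

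Read in bins of 10 kb, a bin was called when its ChIP coverage exceeded its IgG coverage by 20 percentage points or more. OrR gamma-H2Av was called in 14 of the 50 bins of the window (28%), while 2.91% of the 11900 bins of the major arms were called by the same rule. The called bins were 8 of 10 on the abd-A side, 3 of 20 on the Ubx side and 3 of 20 on the Abd-B side. They formed 3 runs, 12550001 to 12570000, 12590001 to 12620000 and 12640001 to 12730000. The last, 9 bins long, crossed from the abd-A to the Abd-B side, and 3 of the 150 runs on the arms were longer. Coverage in the 14 called bins was 51.1% at the lowest, 76.2% at the median and 99.7% at the highest. IgG had no peak in 10 of them and covered at most 19.9% of the other 4. Neighbouring bins share peaks and are not replicates.

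**Figure D2:**
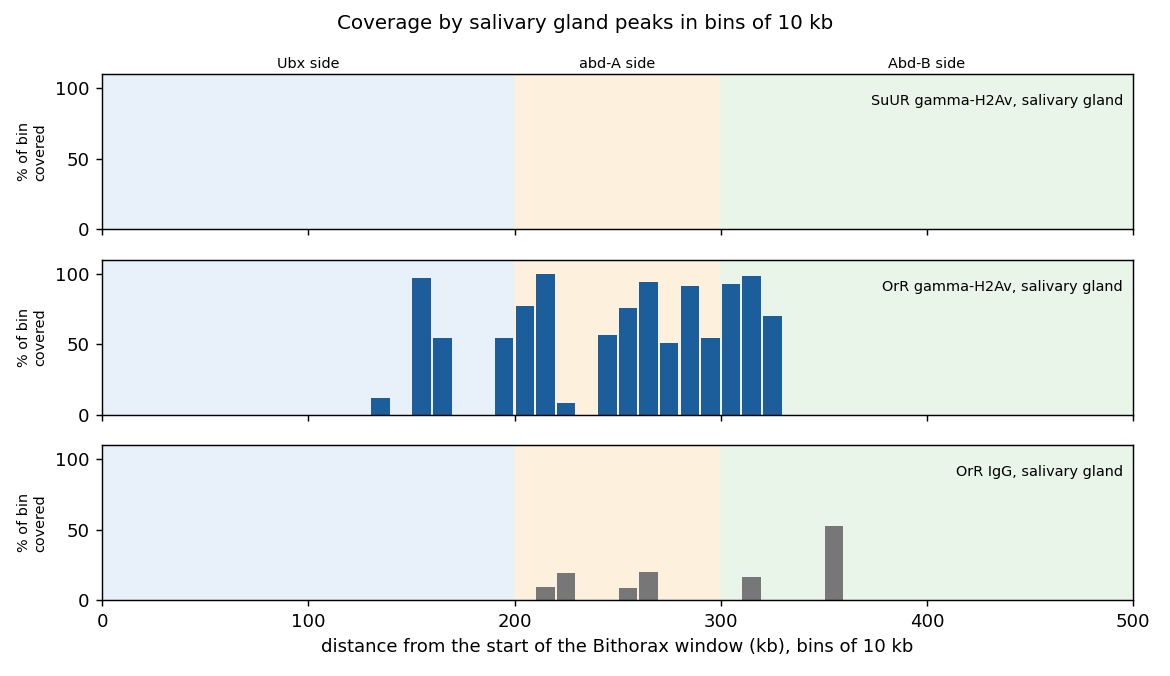
Percent of each 10 kb bin covered by peaks across the Bithorax window, for SuUR gamma-H2Av, OrR gamma-H2Av and OrR IgG in salivary glands. OrR gamma-H2Av covers more than 50% of 14 bins, 8 of them on the abd-A side, IgG exceeds 50% in 1 bin on the Abd-B side, and SuUR gamma-H2Av is at 0 throughout.

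Bin by bin, the 3 called bins of the Ubx side were covered to 96.9, 54.2 and 54.5%, with an empty stretch of 2 bins, 12570001 to 12590000, before the last of them. On the abd-A side the first 2 bins reached 76.8 and 99.7%, and IgG covered 0 and 9.75% of them. The next bin, 12620001 to 12630000, was the only bin of the abd-A side where IgG had more, with 8.14% for gamma-H2Av and 19.6% for IgG, and 12630001 to 12640000 held no peak of either. The remaining 6 bins of the abd-A side lay between 51.1 and 93.9%, and IgG covered up to 19.9% of them. The 3 called bins of the Abd-B side, which adjoin these, were at 92.5, 98.8 and 70.0%, and IgG was present only in the middle one, at 16.6%. Beyond 12730000 gamma-H2Av had no peak, and 1 bin of the Abd-B side, 12750001 to 12760000, was 52.5% covered by IgG alone. The called bins therefore stood in 3 separate runs, with the 2 breaks between them on the Ubx side and early in the abd-A side. Before the first run, gamma-H2Av also covered 11.9% of the Ubx-side bin 12530001 to 12540000, which was not called.

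Among single peaks, the longest on the Ubx side was 12550311 to 12565418, 15.1 kb long with 1255 tags and a fold of 4.18 over the input. Fold values are those of the authors' peak caller and are used only within a list. The highest fold on that side was 4.54, for the peak at 12594555 to 12601534 that runs into the abd-A side. On the abd-A side the longest peak was 12610448 to 12620814, with 10.4 kb and a fold of 4.86, and the highest fold was 5.59, at 12654359 to 12657420. Each of these abd-A peaks also overlapped an IgG peak. On the Abd-B side the longest peak was the last one, 12718944 to 12727001, with 8.06 kb and a fold of 4.74, which overlapped an IgG peak by part of its length. The highest fold there was 5.24, for a peak of 900 bp at 12707976 to 12708875. Picked after their values were seen, other peaks with a fold above 5 were 12603851 to 12610421, at 5.17, 12666379 to 12670069, at 5.26, and 12674913 to 12679363, at 5.51, all on the abd-A side. The lowest folds were 2.76, at 12709102 to 12712666 on the Abd-B side, and 3.12, at 12681441 to 12684515 on the abd-A side. By side the median fold was 4.18 for the Ubx side, 4.25 for the abd-A side and 3.81 for the Abd-B side. The caller's score, a scaled −log10 of the p-value, was between 53.4 and 307 over the 25 peaks. Folds of the 25 peaks thus stayed within a narrow range, from 2.76 to 5.59.

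The peaks of the complex were close together, and their median length and fold lay between those of the rest of 3R and of the arms. Their density was 50 peaks per Mb, against 1.31 on the rest of 3R and 5.50 on the arms outside the window. Their median length was 3.30 kb, against 5.17 kb for the 36 other peaks of 3R and 2.68 kb for the 652 arm peaks outside the window. Their median fold was 4.18, against 3.785 on the rest of 3R and 4.55 on the arms outside the window. The window makes up 1.79% of 3R and held 41.0% of its gamma-H2Av peaks and 33.3% of their covered length. For IgG the same shares were 13.3% and 5.65%.

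The 6 IgG peaks of the window were shorter and fewer. The longest, 12751263 to 12756513 on the Abd-B side, was 5.25 kb with a fold of 3.73, and it lay beyond the last gamma-H2Av peak. The highest fold was 6.16, for a peak of 975 bp at 12613802 to 12614776 on the abd-A side, inside a gamma-H2Av peak. Of the 25 gamma-H2Av peaks, 6 overlapped an IgG peak by at least 1 bp (24.0%, Wilson 95% interval 11.5 to 43.4%, counting error only). On the arms outside the window 170 of 652 did so (26.1%, 22.9 to 29.6%). Neighbouring peaks can meet the same IgG peak and are not independent, so no conclusion is drawn from these intervals. Of the 6 IgG peaks, 4 overlapped a gamma-H2Av peak (66.7%, 30.0 to 90.3%), against 9 of 39 on the rest of 3R (23.1%, 12.6 to 38.3%) and 176 of 513 on the arms outside the window (34.3%, 30.3 to 38.5%). Gamma-H2Av covered 21.7% of the window, 0.795% of the rest of 3R and 2.10% of the arms outside the window. These shares of IgG peaks thus rest on unlike coverage and cannot be set directly against each other. Shared sequence came to 5.14 kb, which is 4.73% of the gamma-H2Av coverage and 40.5% of the IgG coverage in the window. Both lists were called against 1 input. The caller's FDR lay between 0.57 and 1.63% for the gamma-H2Av peaks and between 7.64 and 8.90% for the IgG peaks, so a limit of 5% would leave all 25 gamma-H2Av peaks and no IgG peak of the window. Over the arms that limit would leave all 677 gamma-H2Av peaks and 18 of 519 IgG peaks, so the difference in FDR was not particular to the window.

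Tag density within the peaks was low on both lists. The 25 gamma-H2Av peaks had 41.0 tags per kb of peak at the lowest, 55.3 at the median and 92.5 at the highest, and the 6 IgG peaks had 41.6, 45.7 and 54.4. Over all sequence the libraries averaged 114 tags per kb for gamma-H2Av and 96.8 for IgG. Every peak of the window in either list therefore held fewer tags per kb than its library's average, although the caller gave each a fold of at least 2.76 over the input. The same was true of 630 of the 652 gamma-H2Av peaks on the arms outside the window (96.6%) and of 464 of the 513 IgG peaks (90.4%). Pooled by side, gamma-H2Av had 76.3 tags per kb on the Ubx side, 55.2 on the abd-A side and 59.4 on the Abd-B side. The first 2 gamma-H2Av peaks of the Ubx side had the highest densities, 92.5 and 83.1 tags per kb. The other 23 lay between 41.0 and 68.4, with the lowest on the abd-A side at 12684601 to 12687554 and 68.4 at the last peak, on the Abd-B side. Fold enrichment is relative to the input. The part of DNA copy number in these calls was not tested, since input tags are not listed in the peak files. The gland lists, IgG included, were all called with the caller's genome size set to 2700000000, against 120000000 for the egg chamber lists. How far the gland calls, folds and coverage depend on that setting was not tested.

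**Figure D3:**
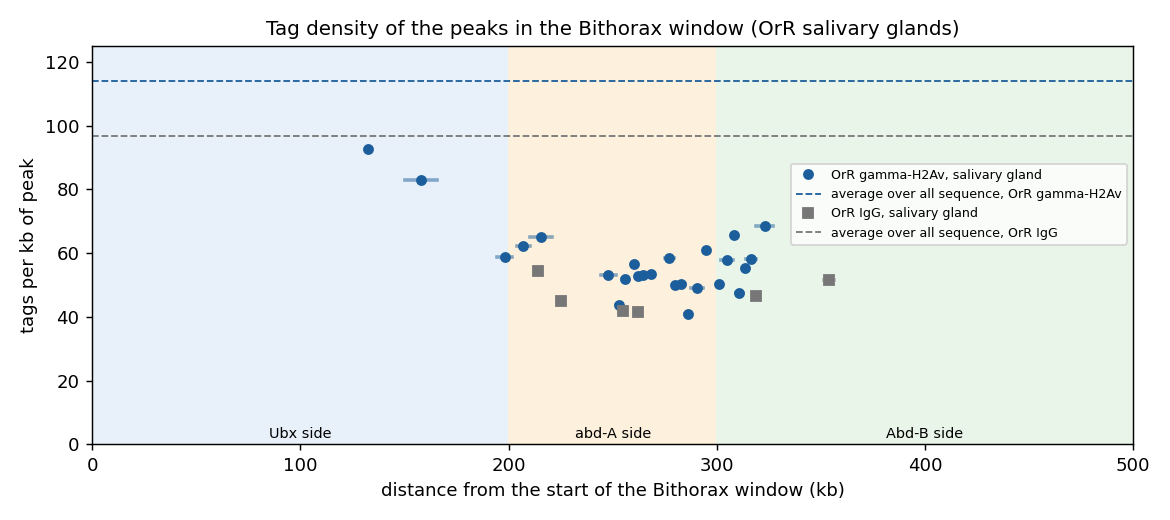
Tags per kb of peak for the OrR gamma-H2Av peaks (circles) and OrR IgG peaks (squares) of the Bithorax window against distance from its start in kb. Horizontal bars give each peak's extent and dashed lines each library's average over all sequence, 114 and 96.8 tags per kb. All peaks lie below their library's line, and gamma-H2Av is lowest on the abd-A side, at 41.0.

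Ranked among the 1169 windows of 500 kb on the major arms, in steps of 100 kb, the Bithorax window came 17 in OrR gamma-H2Av coverage, with 109 kb against a median of 0 kb. On 3R no window had more. The windows above it fell into 5 loci. A pair lay on 2L, 15200001 to 15900000 and 21900001 to 22500000, and 1 on 3L, 23400001 to 24500000. The others were on X, 11800001 to 12500000 and 20400001 to 21000000. In those loci the window richest in gamma-H2Av also held between 21.5 and 76.5 kb of IgG, against 12.7 kb at the Bithorax complex. After IgG coverage was subtracted, the Bithorax window had 96.0 kb and ranked 2, behind 1 window of X, 12000001 to 12500000. That X window had 7.70 kb of SuUR gamma-H2Av, and the richest windows of the 5 loci had between 7.70 and 94.6 kb, against 0 kb at the Bithorax complex. Some windows ranked lower also had 0 kb of SuUR gamma-H2Av. These included 3L, 17900001 to 18400000, with 96.8 kb in OrR, and 2R, 500001 to 1000000, with 85.7 kb. Others had more, such as 2L, 17500001 to 18000000, with 124 kb in SuUR, so 0 kb was not particular to the complex. Windows overlap one another and the rank is a description.

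**Figure D4:**
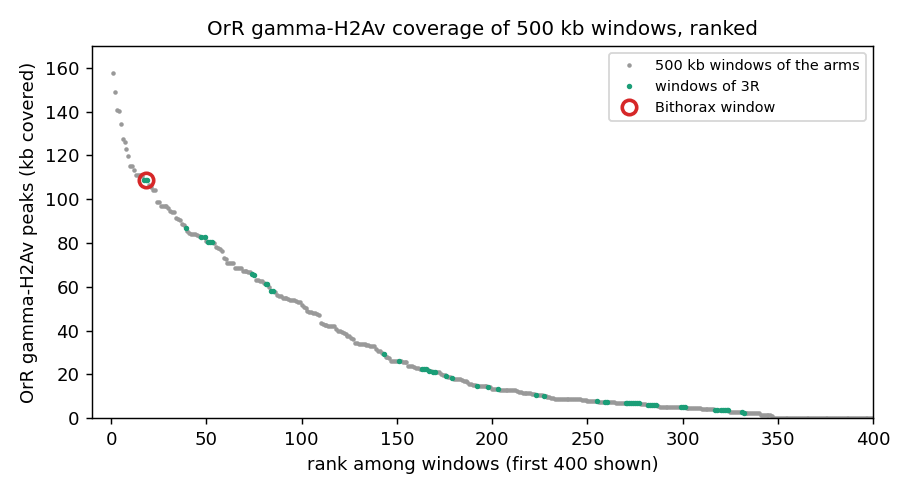
Covered length of OrR gamma-H2Av peaks in kb for 500 kb windows of the arms, in falling order, with windows of 3R in green and the Bithorax window circled. The Bithorax window, at 109 kb, is tied with its neighbouring 3R windows, which hold the same peaks, and no other window of 3R is as high.

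The second comparison set SuUR against OrR glands and asked whether the mark at the complex differs with the SuUR genotype. No SuUR gamma-H2Av peak fell in the window or its flanks, against 25 peaks in OrR, and this held on the Ubx, abd-A and Abd-B sides alike. No bin of the window was called in SuUR over OrR IgG, which follows from the absence of peaks, while 1.21% of all arm bins were. The nearest SuUR peaks on 3R were 6631063 to 6637377, 5.76 Mb below the window with a fold of 3.78, and 24592140 to 24595240, 11.7 Mb above it with a fold of 3.45. The peak-free stretch between them, 18.0 Mb, was the longest of the arms in that list.

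That absence was shared with the rest of the arm. The SuUR list had only 3 peaks on 3R, and 82.0% of arm windows of 500 kb held none. Of the 10 kb bins called in OrR, none of 14 at the Bithorax complex, 1 of 29 elsewhere on 3R and 59 of 303 on the other arms (19.5%) held any SuUR peak. Peak by peak, none of the 25 OrR peaks of the window overlapped a SuUR peak, against 1 of 36 on the rest of 3R (2.78%, Wilson 95% interval 0.492 to 14.2%) and 114 of 652 on the arms outside the window (17.5%, 14.8 to 20.6%). Since the SuUR list had no peak in the window, the bin and peak counts there were fixed in advance and add nothing to that absence. The SuUR list has 205 arm peaks in all, so cutting the gland lists to their 205 best arm peaks each left it unchanged, with none in the window. After that cut the window held 7 peaks with 37.8 kb in OrR and 1 peak with 5.25 kb in OrR IgG. SuUR has no IgG list here and its gamma-H2Av was called against its own input. Strain and library cannot be told apart.

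The third comparison concerned SUUR and Cdc45 in egg chambers, at the same window. At stages 12-13 neither the library labelled SUUR nor the one labelled Cdc45 had a peak there, nor did IgG. At stage 10 the library labelled Cdc45, the deepest of the 6 egg chamber libraries, and IgG had none. No bin of the window was called in any of the 4 ChIP lists. Over all arm bins the called share was 0.311% for the SUUR label and 0.437% for the Cdc45 label at stages 12-13, and 0.042% for the SUUR label and 0.815% for the Cdc45 label at stage 10, so few bins were called anywhere and none in 50 is near that background.

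The complex lay in a long peak-free stretch of egg chamber chromatin. The stretch without a peak that held the window was 1.89 Mb in the stages 12-13 library labelled SUUR, 1.78 Mb in its Cdc45-labelled counterpart and 1.48 Mb in their IgG. At stage 10 it was 1.41 Mb in the library labelled Cdc45 and 6.73 Mb in IgG. It was the longest such stretch of the major arms in 4 of these 5 lists and ranked 3 in the IgG list of stages 12-13. Arm windows of 500 kb without a peak made up 16.5% for the SUUR label, 10.7% for the Cdc45 label and 15.1% for IgG at stages 12-13, and 5.05% for the Cdc45 label and 61.1% for IgG at stage 10. A total of 24 of the 1169 windows (2.05%) were empty in all 5 lists. Peaks in each of these lists are numbered without a break, also across the window. The IgG lists had no peak in the window either, and all lists of a stage share 1 input. At stage 10, however, 61.1% of arm windows were empty in IgG, so an empty window is common in that list. Whether the absence is particular to an antibody was not tested. The absence says that no peak passed the callers' limit, not that the proteins were absent.

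The stage 10 library labelled SUUR was the exception, with 16 peaks in the window. There were 10 on the Ubx side, 2 on the abd-A side and 4 on the Abd-B side, between 49 and 109 bp long and 0.977 kb in all. Their pileup at the summit was 2 tags in 5 peaks, 3 tags in 10 and 4 tags in 1. The highest fold, 4.36, belonged to the peak of 4 tags on the Abd-B side at 12803462 to 12803536. Their density of 32 per Mb compares with 25.5 on the rest of 3R, 22 and 24 in the flanks below and above, and 29.0 on the arms outside the window. In this library of 353742 tags, 91.0% of arm peaks outside the window had a pileup under 5 tags, so the peaks at the complex were as thin as those elsewhere. None of the 16 overlapped a gamma-H2Av or an IgG peak of OrR salivary glands, which allows a share of up to 19.4% (Wilson 95% interval). On the arms outside the window 67 of 3433 overlapped a gamma-H2Av peak (1.95%) and 75 an IgG peak (2.18%), so such overlap was rare there too. Gamma-H2Av covered 2.10% of those arms but 21.7% of the window, and IgG 1.60% and 2.54%. The shares inside and outside the window therefore rest on unlike coverage and cannot be set directly against each other.

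In the upper flank, 4 of the 6 egg chamber lists had peaks in one small cluster, 13337134 to 13341811. At stages 12-13 the SUUR label had 10 peaks in it, the Cdc45 label 8 and IgG 7, and at stage 10 the Cdc45 label had 10 and IgG none. No gland peak lay in it. These were all the peaks of the upper flank in those lists but 1, and the lower flank held none. At stages 12-13 pileups there were 7 to 11 tags for the SUUR label, 11 to 17 for the Cdc45 label and 6 to 8 for IgG, so IgG shared the cluster at those stages but not at stage 10.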

How the data were processed

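Peak lists of 9 ChIP-seq libraries were used, grouped by the sample labels, 1 library per group. The 4 inputs entered only through the authors' peak calls. Reads were mapped with BWA to dm3, per the submitters' processing notes. Per the file headers, gland peaks were called per library with MACS 1.4.2 (p-value limit 1e-05, effective genome size 2700000000) and egg chamber peaks with MACS 2.0.10.20130419 (limit 0.001, size 120000000). That gland genome size is far above that of a fly. The deposited gland lists give tag counts per peak, a score (the scaled −log10 of the p-value), a fold over input and an FDR in percent. The deposited egg chamber lists give pileup signal, −log10 p-values and fold, and their q-values were not used.

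Peaks were clipped to regions, and coverage, blocks, ranks and overlaps (1 bp or more) were computed in Python 3.11 with NumPy 2.4.6 and SciPy 1.17.1, and checked on simulated intervals. Arm lengths were the last peak end over the 9 lists. Average tags per kb divide the tags after filtering by 169 Mb, the sum of such ends over all sequences. Peaks named singly are the longest and the highest in fold of each stretch, the first and last, and the nearest SuUR ones. The window, its stretches and these rules were chosen with earlier results of these data known. Conditions were not tested against each other, for want of replicates.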

Additional observations from a re-analysis of the deposited data

Results flagged for a closer look

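At the Bithorax window the strains lay on opposite sides of OrR IgG: peak coverage differed by -2.54 percentage points for SuUR gamma-H2Av and by 19.2 percentage points for OrR gamma-H2Av. The difference was not tested, since each value comes from 1 library, and both were set against the same IgG list. SuUR coverage was 0, so its value is the IgG coverage with the sign turned. With an FDR of at most 5% the IgG coverage was 0% as well, so the SuUR difference is then 0 and the opposite direction is lost.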

How the results depend on the processing

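No paired analysis was possible because each group holds 1 library, and for the same reason no library could be left out. Of 70 alternative values, 46 stayed within the 95% counting interval of the value reported (for called bins, within 1.5 times of it). The other 24 moved, 10 of these by over 1.5 times. Most of the 46 were 0 that stayed 0, in lists with no peak in the window or no bin called there. A list with no peak in the window stays at 0 when filtered, rebinned or read in a narrower window. Such values could not have moved, and most values other than 0 did move. The interval for coverage counts every base as independent and is narrow, so small shifts of coverage count as moved. Coverage of the window by OrR gamma-H2Av (21.7%), OrR IgG (2.54%) and the stage 10 library labelled SUUR (0.195%) became 12.4, 1.05 and 0.0738% with the upper 50% of each list by p. It became 27.2, 3.17 and 0.216% with a window 50 kb narrower on each side, and 18.1, 2.12 and 0.18% with one 50 kb wider, since the covered length stays nearly the same while the window changes. With 205 arm peaks per gland list OrR gamma-H2Av had 7.55% and IgG 1.05%, and with an FDR of at most 5% IgG had 0%. SuUR gamma-H2Av was at 0% in each of these. Bins called in OrR ranged from 24 to 36% with bins of 5 or 20 kb and limits of 10 or 40 points. Over all arm bins the OrR shares were 2.61 and 3.16% with bins of 5 and 20 kb. They were 3.41 and 2.01% with limits of 10 and 40 points. The share of OrR peaks overlapping IgG was 8% when the summit had to lie inside the IgG peak. Among windows of 3R alone, percentiles of coverage were 94.5 for SuUR, 100 for OrR and 85.8 for gland IgG, against 82.0, 98.6 and 78.4 on all arms. In egg chambers they were 31.3 labelled SUUR, 15.3 labelled Cdc45 and 21.8 for IgG at stages 12-13, and 83.6, 9.45 and 72.7 in that order at stage 10. With OrR IgG subtracted they were 15.4 for SuUR and 99.9 for OrR. The cause of these shifts was not tested. Percentiles of lists with no peak in the window count ties, so they reflect how many windows are empty.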
